A study of Mus musculus with 6 samples.

Results

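Fibronectin, periostin and the matrix metalloproteinases (MMPs) were examined in sorted stromal cells of mouse bone marrow lacking Snai2. The genes were taken by name from the authors' deposited table, as Fn1, Postn and every gene identifier that begins with Mmp and a number. This gave 6 of the 1285 listed genes, namely Fn1, Postn, Mmp2, Mmp13, Mmp16 and Mmp19. The cells were mesenchymal stem and progenitor cells (MSPCs), which support blood stem cells in the marrow. They came from Snai2-/- mice, in 3 libraries, and from control littermates, in 3 libraries, all aged 8 weeks. Snai2 encodes Slug, a zinc-finger repressor of the Snail family. The labels give neither the Snai2 allele nor the exact genotype of the controls, and name no Cre driver. Both groups were gated on a Nes-GFP reporter and on the absence of leukocyte, erythroid and endothelial surface antigens, with 2000 cells sorted per library.

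Fibronectin is a secreted glycoprotein that cells assemble into fibrils through integrins, and it serves as a scaffold on which other matrix proteins are laid down. Periostin is a matricellular protein of periosteum and other collagen-rich tissues that binds fibronectin and collagen and takes part in collagen crosslinking. The MMPs are zinc-dependent endopeptidases that cut matrix proteins. Most are secreted as inactive proenzymes, some are held at the cell surface, and tissue inhibitors of metalloproteinases (TIMPs) block them. In bone, MMP13 is the collagenase best known from osteoblasts and hypertrophic chondrocytes, and MMP2 is a gelatinase of stromal cells.

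The values available here are 1 mean per group and gene, on a normalized scale of unstated unit, with the authors' unadjusted p and step-up false discovery rate (FDR). Single libraries, with their spread and depth, were not analysed here, so no error stands beside a mean, no overlap between libraries can be stated, and levels are not compared between genes as transcript abundance. Where genes are placed by their signal below, it is not adjusted for transcript length. Every listed gene has an unadjusted p below 0.05 because the authors' deposited table holds no others (the largest is 0.0499), so that limit is no finding for any gene described below. The FDR values correspond to 16718 genes tested. Of these, 0 (0%) had an FDR below 0.05 per the authors' deposited table, by a model the sources used here do not name, against 1285 with an unadjusted p below 0.05. At an FDR below 0.1 there was 1 (0.00598%) per the authors' deposited table. That gene was Snai2, with a mean of 9.20 in Snai2-/- cells and 636 in control cells per the authors' deposited table. None of the 6 genes lies on chromosome 16, which carries Snai2. In bulk cells of this kind, a change in the number of cells of a type and a change in RNA per cell cannot be told apart.

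Of the 6 genes, 5 had a higher mean in Snai2-/- cells and 1, Mmp19, a lower one, while 49.1% of all listed genes were higher in Snai2-/- cells. The same 5 were at least 2-fold higher, against 27.5% of listed genes (45.9% in either direction). Their median log2 ratio was 1.71, beside -0.36 for all listed genes. An unadjusted p below 0.01 was found for 4 of the 6 per the authors' deposited table, against 28.4% of listed genes. None of the 6 reached an FDR of 0.05 or 0.1 per the authors' deposited table, where their FDR ran between 0.351 and 0.574. The 6 were chosen by name with earlier results known, and Fn1 and Postn were taken because they are listed, so these shares are a description.

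**Figure D1:**
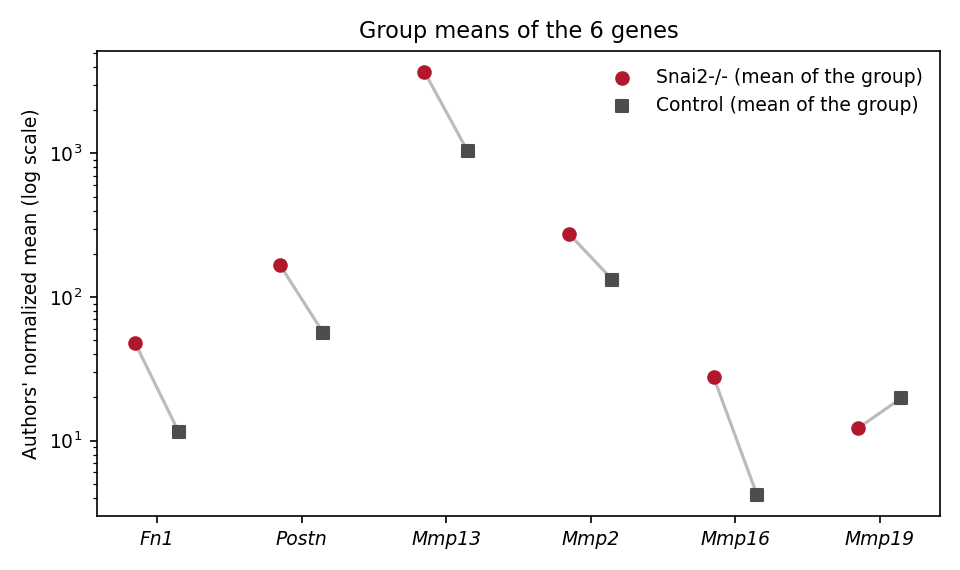
Mean of each group for the 6 genes on the authors' normalized scale (log axis), Snai2-/- as circles and control as squares, each point a mean over 3 libraries without an error bar. The Snai2-/- mean lies above the control mean for 5 genes and below it for Mmp19.

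Fn1 encodes fibronectin (GRCm38 chromosome 1, 71585520 to 71653200, minus strand). Per the authors' deposited table it had a mean of 47.5 in Snai2-/- cells and 11.5 in control cells. The authors' deposited table gives it a ratio of 4.13, an unadjusted p of 0.00609 (rank 260 of 1285) and an FDR of 0.391. With a pseudocount of 10 on both means its log2 ratio was 1.42, against 2.05 without. Its longest coding transcript in GENCODE M21 has 46 exons and 8315 bases. Of the 50-base windows of that transcript, 2.42% also occur in a transcript of Apol7d, which overlaps it on the opposite strand and is not listed. The library chemistry does not mark the strand, so reads from these windows cannot be assigned to either gene.

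Postn encodes periostin (chromosome 3, 54361109 to 54391037, plus strand). Its mean was 167.7 in Snai2-/- cells and 56.4 in control cells per the authors' deposited table. With a ratio of 2.97, an unadjusted p of 0.00256 and an FDR of 0.351 per the authors' deposited table, it had the lowest p of the 6 genes and ranked 122 among all listed genes. None of the 50-base windows of its transcript occurs in another gene.

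Among the MMPs, Mmp13 encodes a collagenase (chromosome 9, 7272514 to 7283331, plus strand). It averaged 3699 in Snai2-/- cells and 1033 in control cells per the authors' deposited table. Its ratio was 3.58, at an unadjusted p of 0.00507 and an FDR of 0.385 per the authors' deposited table. Mmp13 is the first gene of a chromosomal cluster of 10 MMP genes that spans 427 kb, between 7272514 and 7699585. It was the 1 listed gene of that cluster, which also holds Mmp1a, Mmp1b, Mmp3, Mmp7, Mmp8, Mmp10, Mmp12, Mmp20 and Mmp27. A gene absent from the list was either untested or had an unadjusted p of at least 0.05, and these cases cannot be told apart.

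Mmp2, which encodes gelatinase A, a protease of denatured collagen and basement membrane collagen (chromosome 8, 92827291 to 92853420, plus strand), showed the smallest ratio of the genes that were higher. Its means were 275.6 in Snai2-/- cells and 132.1 in control cells, a ratio of 2.09, per the authors' deposited table. The unadjusted p was 0.0244 and the FDR 0.565 per the authors' deposited table. Mmp9, the other gelatinase gene, was not listed.

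Mmp16 encodes a membrane-anchored MMP, MT3-MMP, which can activate the proenzyme of MMP2 (chromosome 4, 17852893 to 18119145, plus strand). It had the highest ratio of the 6 genes, 6.60, with means of 27.8 in Snai2-/- cells and 4.21 in control cells per the authors' deposited table. That rank rests on the low control mean. With a pseudocount of 10 on both means its log2 ratio was 1.41, against 2.72 without, and below the 1.83 of Mmp13. Its unadjusted p was 0.00264 and its FDR 0.356 per the authors' deposited table. Of 6 membrane-type MMP genes it was the 1 listed. Mmp14, the membrane-type gene best known as an activator of MMP2, was not listed.

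Mmp19 encodes a secreted MMP outside the classical subgroups (chromosome 10, 128790910 to 128800824, plus strand) and had the opposite direction. Per the authors' deposited table, its means were 12.2 in Snai2-/- cells and 19.8 in control cells, and their ratio 0.617. The unadjusted p was 0.0262 and the FDR 0.574 per the authors' deposited table. Its transcript shares 25.4% of its 50-base windows with genes on the opposite strand, 22.1% with Tmem198b and 3.34% with Gm47093. Neither is listed, and without strand information the reads of these windows cannot be assigned to Mmp19 alone, so its values are less certain than those of the other 5.

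The 4 listed MMP genes were 17.4% of the 23 MMP genes looked for, beside 7.69% of all tested genes that were listed. How many of the 23 were tested is not known, so the 2 shares have unlike bases. The same limit holds for every list set beside the 7.69% below. The 4 came from different subgroups, with 1 of 4 collagenases, 1 of 2 gelatinases, 1 of 6 membrane-type genes and 1 of 7 ungrouped genes, and 0 of 3 stromelysins and 0 of 1 matrilysin. Their median log2 ratio was 1.45. What the 4 share in sequence is the catalytic zinc site, in which 3 histidines hold the zinc ion. It is shown because it is the active site common to the 4 proteases. The coding bases below were found in the longest coding transcripts of GENCODE M21 on GRCm38, by a search in frame for the codons of histidine, glutamate, any 2 residues, histidine, any 2 residues, glycine, any 2 residues and histidine. Capitals mark the 3 histidine codons.
Mmp2, chr8:92839279-92839311, plus strand, exon 8: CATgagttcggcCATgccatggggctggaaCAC
Mmp13, chr9:7276573-7276605, plus strand, exon 5: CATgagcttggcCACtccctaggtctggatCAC
Mmp16, chr4:18051748-18051780, plus strand, exon 5: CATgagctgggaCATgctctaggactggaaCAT
Mmp19, chr10:128795673-128795705, plus strand, exon 5: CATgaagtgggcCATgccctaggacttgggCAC
The pattern was present in 22 of the 23 MMP genes and in 67 of 21877 coding genes in all. Between any 2 of the 4 listed MMPs, 24 or 25 of the 33 bases were identical. No 50-base window of the 4 occurred in any other MMP gene, so a read that matches 1 of these 4 transcripts exactly over 50 bases matches no other MMP.

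**Figure D2:**
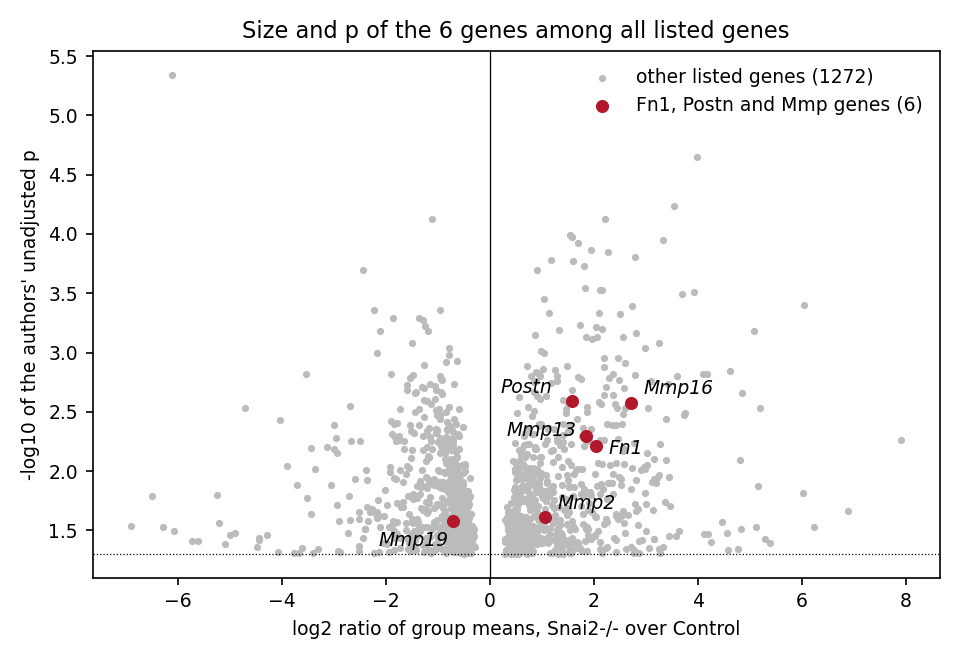
The log2 ratio of group means (Snai2-/- over control) against -log10 of the authors' unadjusted p for the listed genes, with the 6 genes in red and 1272 others in grey, and a dotted line at p = 0.05. The 7 genes with a group at 0.0001 are not drawn. Postn and Mmp16 have the smallest p of the 6, and Mmp2 and Mmp19 lie near the lower edge.

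Ratios in a table selected on p depend on the amount of signal behind them, as the plot of ratio against level shows. When the listed genes were divided into 4 bins of equal size by total signal, 16.8% of the 321 in the highest bin were at least 2-fold higher in Snai2-/- cells, and Postn, Mmp13 and Mmp2 belong to these. The next lower bin, which holds Fn1, had the same share, 16.8%. In the bin below it, which holds Mmp16 and Mmp19, the share was 30.8%. These bins rank total signal without regard to transcript length. The longest coding transcripts had a GC content of 41.7% for Mmp13, 42.2% for Mmp16, 44.1% for Postn, 49.0% for Mmp19, 53.5% for Fn1 and 55.3% for Mmp2. Over the 1185 listed genes with a coding transcript the median was 50.7%, with an interquartile range from 46.0% to 55.2%. Mmp13, Mmp16 and Postn lay below that range and Mmp2 just above it, and the part of base composition in the ratios was not tested.

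**Figure D3:**
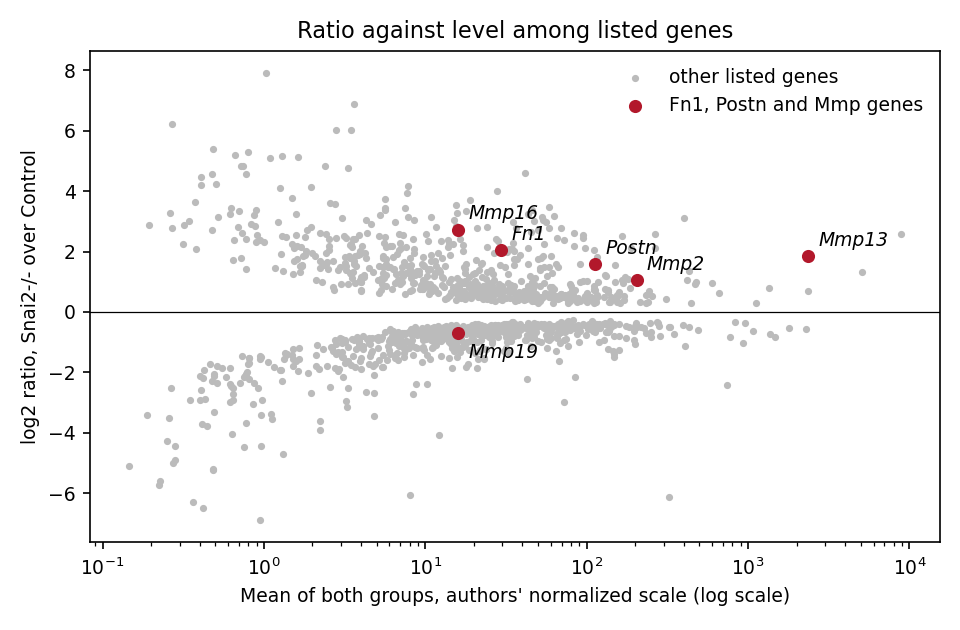
The mean of both groups on the authors' normalized scale (log axis) against the log2 ratio of Snai2-/- over control, 1 point per listed gene, with the 6 genes in red. Ratios spread more widely at low levels, and Mmp13 lies far to the right, on a scale not adjusted for transcript length.

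The regulators of these proteases are their inhibitors and activators. Of 11 genes of MMP inhibitors and related proteins 2 were listed, or 18.2% beside 7.69% of all tested genes. Timp1, Timp2, Timp3, Timp4 and Reck were not listed. Not all of the 11 encode MMP inhibitors, so this share does not describe MMP inhibitors alone. Tfpi2, which encodes a Kunitz-type inhibitor of plasmin and other serine proteases, had means of 18.4 in Snai2-/- cells and 47.3 in control cells per the authors' deposited table. Its ratio of 0.388 came with an unadjusted p of 0.000514 and an FDR of 0.269 per the authors' deposited table. The other was the proteoglycan gene Spock2, with low means of 1.27 in Snai2-/- cells and 0.126 in control cells per the authors' deposited table. Its unadjusted p was 0.0436 and its FDR 0.632 per the authors' deposited table. Of 17 genes of the plasmin system and of MMP activation 2 were listed, or 11.8% beside the same 7.69%, both with a higher mean. Plaur, the urokinase receptor gene, had means of 14.0 and 1.58 in Snai2-/- and control cells per the authors' deposited table. Pcsk6, a proprotein convertase gene, had means of 11.5 and 2.38 in Snai2-/- and control cells per the authors' deposited table. Plau, Plat and Furin were not listed. Of 32 ADAM and ADAMTS protease genes 3 were listed, or 9.38% beside 7.69% of all tested genes. Among them, Adam9, a membrane metalloproteinase gene, had means of 164.2 and 117.0 in Snai2-/- and control cells per the authors' deposited table.

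Receptors for fibronectin, periostin and other matrix molecules, among them collagen, laminin and hyaluronan, were listed 5 times among 30 genes, or 16.7% beside 7.69% of all tested genes. Of the 5, 4 had a higher mean and 1 a lower, where 49.1% of listed genes were higher. Neither Itga5 nor Itgb1, the subunits of the main fibronectin receptor, was listed, nor were Itgav, Itgb3 and Itgb5, subunits of receptors to which periostin binds. Sdc4, the heparan sulfate proteoglycan syndecan 4 that assists integrins on fibronectin, had means of 234.0 in Snai2-/- cells and 135.0 in control cells per the authors' deposited table. Its ratio was 1.73 at an unadjusted p of 0.00157 and an FDR of 0.322 per the authors' deposited table. Mrc2, an endocytic receptor that takes up collagen fragments, had a ratio of 1.56, and the hyaluronan receptor gene Cd44 a ratio of 1.61, per the authors' deposited table. Itga10, a collagen-binding integrin subunit gene of cartilage, had means of 12.3 and 2.78 in Snai2-/- and control cells per the authors' deposited table. Itga6, a laminin-binding integrin subunit gene, was lower, at 1.17 in Snai2-/- cells and 7.44 in control cells per the authors' deposited table.

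Among proteins that assemble with fibronectin and periostin, 10 of 48 gene symbols were listed, Fn1 and Postn included, or 20.8% beside 7.69% of all tested genes. The 48 hold both the older and the newer symbol of some CCN family genes, so they stand for fewer genes. Of the 10, 8 were higher and 2 lower in Snai2-/- cells, where 49.1% of listed genes were higher. The 8 include 2 genes not named here, both with a control mean below 1. With both group means at least 1 the median log2 ratio of the list was 1.53, against 1.81 for all 10. Fn1 and Postn were taken because they are listed, and both had a higher mean. The listed share, the count of higher genes and the medians of this list therefore rest in part on that choice. Tgfbi, the paralog of periostin with the same fasciclin domains, had means of 86.2 in Snai2-/- cells and 30.5 in control cells per the authors' deposited table. Its ratio of 2.82 and unadjusted p of 0.00267 stand beside the 2.97 and 0.00256 of Postn per the authors' deposited table. Comp, a cartilage thrombospondin, had a ratio of 4.31, and Wisp1, a matricellular protein of the CCN family, a ratio of 5.52, per the authors' deposited table. Thbs3, a further thrombospondin gene, had a ratio of 1.54 per the authors' deposited table. The 2 lower genes belong to elastic fibers. Emilin1 had means of 185.3 and 266.6, and Mfap2 means of 73.9 and 124.8, in Snai2-/- and control cells per the authors' deposited table. Tnc, Sparc, Bmp1 and Lox were not listed.

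The collagen chains went both ways, 5 higher and 5 lower among 10 listed of 44 (22.7%, beside 7.69% of tested genes). The 5 higher include chains not named here. Whether the proteins above act on each of these chains was not tested. Col1a1, the substrate of collagenases in bone, had means of 15244 in Snai2-/- cells and 2546 in control cells per the authors' deposited table. Its unadjusted p was 0.0274 and its FDR 0.582 per the authors' deposited table. Col11a1 and Col22a1 had ratios of 4.36 and 6.33, at unadjusted p of 0.0458 and 0.0236, per the authors' deposited table. The chains of collagen VI were lower, with a ratio of 0.563 for Col6a1, 0.488 for Col6a2 and 0.531 for Col6a3, per the authors' deposited table. So were Col16a1 at 0.463 and Col26a1 at 0.302 per the authors' deposited table. The unadjusted p was 7.55e-05 for Col16a1, 0.00209 for Col6a2, 0.00298 for Col26a1, 0.00452 for Col6a1 and 0.0238 for Col6a3 per the authors' deposited table. Of 35 proteoglycan and hyaluronan genes 4 were listed, or 11.4%. Serglycin (Srgn), fibromodulin (Fmod) and chondroadherin (Chad) had ratios of 5.92, 2.92 and 11.1, and podocan (Podn) a ratio of 0.336, per the authors' deposited table. Of 15 basement membrane genes 3 were listed, or 20%, Lama5 with a ratio of 4.43, Lamc1 with 0.752 and Agrn with 0.589 per the authors' deposited table.

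**Figure D4:**
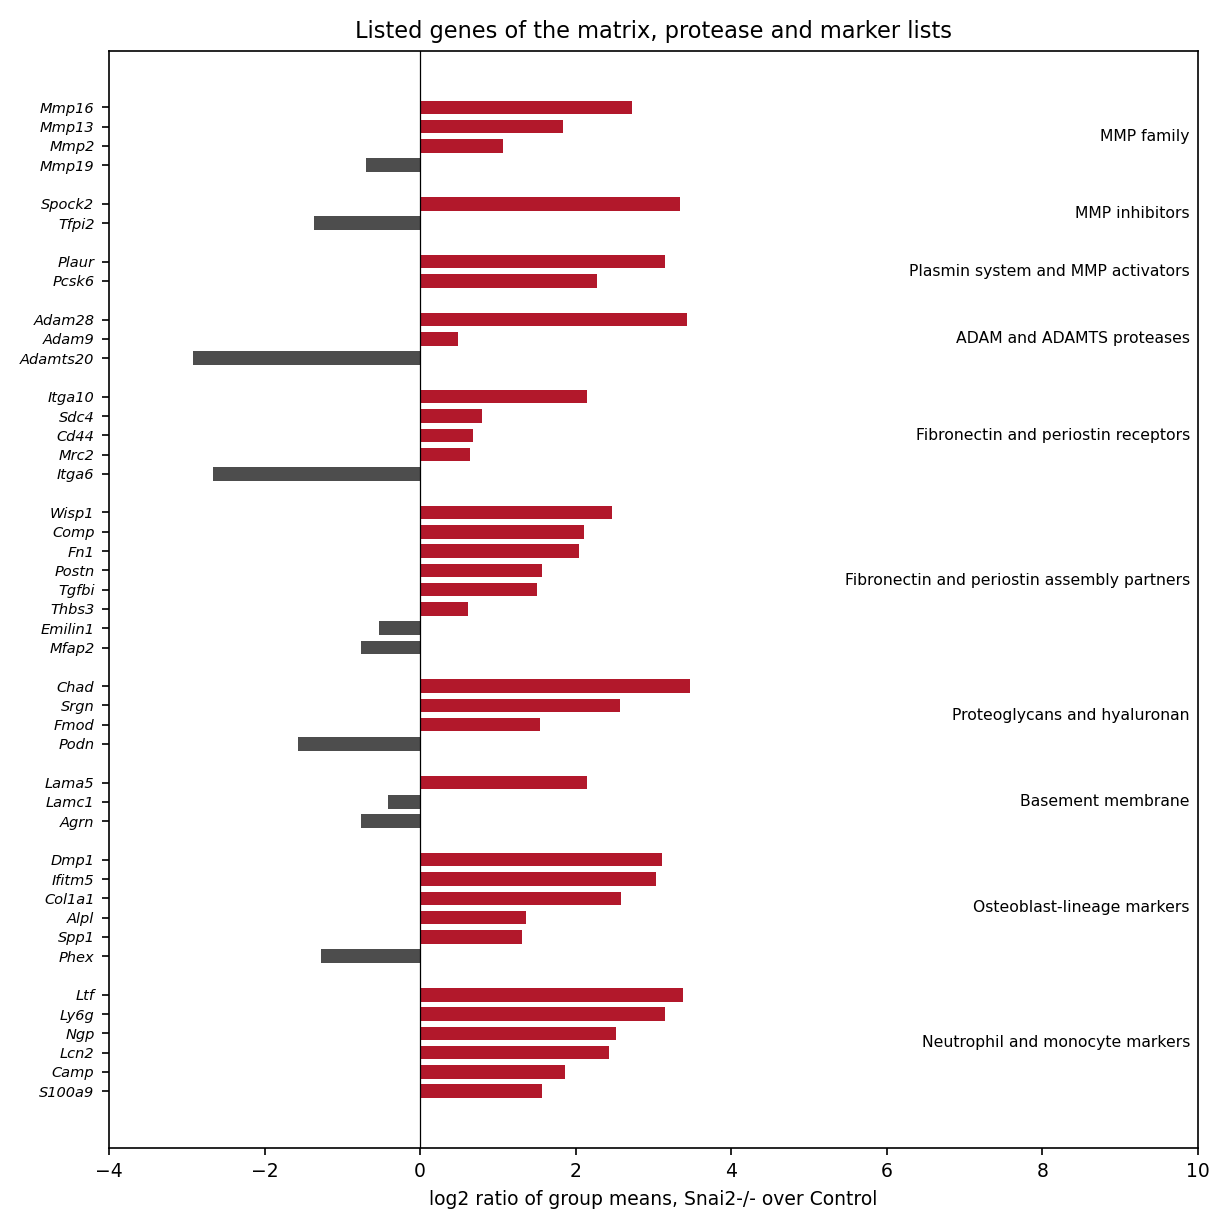
The log2 ratio of group means (Snai2-/- over control) for listed genes of 10 gene lists, 1 bar per gene, red for a higher and grey for a lower mean in Snai2-/- cells, at most 8 genes per list. Within the MMP family 3 bars point to a higher and 1 to a lower mean. Among the assembly partners drawn 6, Fn1 and Postn included, point to a higher and 2 to a lower mean.

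Promoter sequence was at hand for Mmp13 and Postn, 2 of the 6 genes (RefSeq, GRCm38.p6), and it is shown because Slug represses genes by binding E-boxes and because AP-1 and RUNX elements are the textbook elements of the Mmp13 promoter. Each stretch covers 250 bases before an annotated start. For Postn, RefSeq has a further start upstream, and its stretch (chr3:54359017-54359266), which is not printed, holds none of the letters searched. The Postn stretch shown lies at the start of the GENCODE gene. Capitals mark matches, on either strand, to the Snail-family E-box (CACCTG or CAGGTG), the AP-1 element (TGANTCA), the RUNX element (ACCACA or TGTGGT) and the TATA box (TATAAA or TTTATA).
Mmp13, chr9:7272264-7272513, plus strand: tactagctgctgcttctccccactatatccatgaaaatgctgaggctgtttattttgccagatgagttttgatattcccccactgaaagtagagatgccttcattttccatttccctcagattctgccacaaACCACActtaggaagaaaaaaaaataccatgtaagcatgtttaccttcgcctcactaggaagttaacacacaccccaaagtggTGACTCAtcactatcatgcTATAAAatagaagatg
Postn, chr3:54360857-54361106, plus strand: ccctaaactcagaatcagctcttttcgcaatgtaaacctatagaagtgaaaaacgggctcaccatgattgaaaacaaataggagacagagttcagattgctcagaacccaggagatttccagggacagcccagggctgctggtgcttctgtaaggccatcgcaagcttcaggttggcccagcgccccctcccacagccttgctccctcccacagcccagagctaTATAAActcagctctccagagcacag
The Mmp13 stretch holds a RUNX match beginning 118 bases before the start, an AP-1 match at 35 bases and a TATA match at 16 bases. The Postn stretch holds a TATA match at 26 bases. No matches overlap. Of 32851 mouse promoters of the same length, 6.75% hold the AP-1 letters, 14.0% the RUNX letters, 12.4% the TATA letters and 17.2% the E-box letters. The E-box letters are in none of these stretches, which says only that they are not within these 250 bases.

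A list of 39 genes was drawn up as transcription factors with known sites in MMP promoters. Of these, 3 were listed, or 7.69%, beside 7.69% of all tested genes, and Snai2 is 1 of the 3. Apart from Snai2 itself, Vdr, the vitamin D receptor gene, had means of 303.7 in Snai2-/- cells and 70.3 in control cells per the authors' deposited table. Its ratio was 4.32 at an unadjusted p of 0.00552 and an FDR of 0.385 per the authors' deposited table. Tead4 had means of 0.421 and 1.21 in Snai2-/- and control cells per the authors' deposited table. Runx2, Sp7, Twist1, Snai1, Fos, Jun and their relatives on the list, other than Snai2, were not listed.

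Markers of cell types that express these genes were read in the same table. Of 15 osteoblast-lineage markers, a lineage known for Mmp13 and Postn, 6 were listed, 5 of them higher and 1 lower in Snai2-/- cells, where 7.69% of all tested genes were listed and 49.1% of listed genes were higher. The means of the listed members summed to 24024 in Snai2-/- cells and 6036 in control cells, mostly from Col1a1 and Spp1. Col1a1 had means of 15244 and 2546, and Spp1 of 7257 and 2931, in Snai2-/- and control cells per the authors' deposited table. The sum therefore says little of the other members. Dmp1 and Alpl had ratios of 8.62 and 2.56 per the authors' deposited table. The lower one was Phex, a gene of phosphate handling, with means of 92.2 in Snai2-/- cells and 223.2 in control cells per the authors' deposited table. The markers Runx2, Sp7, Bglap and Ibsp were not listed. Against the same shares, 3 of 11 chondrocyte markers were listed, all with a higher mean, and Sox9, Acan, Col2a1 and Col10a1 were not. Of the 3, Col11a1 and Comp were already counted in lists above. The third was Matn1, with means of 7.13 in Snai2-/- cells and only 0.0605 in control cells per the authors' deposited table. Neutrophils carry MMPs of their own, MMP8 and MMP9. Of 16 neutrophil and monocyte markers 6 were listed, or 37.5% against the 7.69% of tested genes, all with a higher mean (49.1% of listed genes). The means of these 6 summed to 729.8 in Snai2-/- cells and 167.4 in control cells, with Ly6g at only 0.931 and 0.105. An unadjusted p below 0.01 was found for 1 of the 6 listed osteoblast-lineage markers and 1 of the 3 chondrocyte markers, against 28.4% of listed genes. It was found for 0 of the 6 neutrophil and monocyte markers, whose lowest p was 0.0184, with FDR between 0.518 and 0.649 per the authors' deposited table. Mmp8 and Mmp9 themselves, and Elane, Mpo, Lyz2 and Csf1r, were not among them. None of 11 osteoclast markers was listed. Markers that define the sorted stroma, among them Cxcl12, Lepr, Kitl, Nes and Pdgfra, were not listed, so the labelled cell type could not be checked from levels. The 1 listed of 14 such markers was Angpt1, with means of 126.1 and 171.3 in Snai2-/- and control cells per the authors' deposited table. The part of these markers in the values of Fn1, Postn and the MMP genes was not tested.

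The listed genes whose pair of group means lay nearest to each of the 6 were found by distance over the log2 of both means. With 1 mean per group this likeness rests on 2 numbers per gene. Nearest to Fn1 were Ramp1, Fam20c and Gfra1, at distances from 0.184 to 0.223. Nearest to Postn were Sgms2, Tmed4 and Slc36a2, at 0.173 to 0.386. Vipr2, Megf6 and Cystm1 lay nearest to Mmp16, at 0.0850 to 0.283, and Slc46a1, Rgs12 and Klhdc8b nearest to Mmp19, at 0.0385 to 0.0891. For Mmp2 they were Sdc4, Atp1b3 and Mt1, at 0.238 to 0.367. Mmp13 had no close neighbor, with Gja1, Id3 and Ctsl at 0.877 to 1.58.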

How the data were processed

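RNA-seq of sorted Snai2-/- and control MSPCs (3 libraries each) was read from 1 table of the authors' own comparison. Per the labels' protocols, cDNA was made with SMART-Seq v4 and libraries with Nextera XT. Trim Galore, HTSeq, edgeR 3.12.0 and mm10 are named, with no roles, in the submitters' processing notes. For the aligner, annotation, normalization and model, details were not given in the sources used here. Per the file headers, each row holds both groups' least-squares means, their total, their ratio (also as a signed fold-change score), a p-value and its step-up FDR. Of the deposited totals 0 of 1285 are whole within 1e-06, so totals and means were taken as a normalized signal. The column named mutant was taken for Snai2-/- and that named wildtype for control. In 7 rows 1 group stands at 0.0001, and no fold is given for those.

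No model was fitted, since library values were not used here. Every p and FDR is the authors' own. They set the difference of the group means against the variation between these libraries, by a model not named, and that variation may be technical. The number of tests was recovered from p, rank and FDR, a step checked on 10 simulated tables. The genes and 19 lists (417 symbols) were chosen with earlier results of these data known. From each list up to 8 listed genes by total were named, and for each of the 6 genes the nearest 3 with both means at least 1, leaving out predicted genes and clones. Members of a list left unnamed there are named only as not listed. Gene coordinates and transcripts are from GENCODE M21 (GRCm38, the assembly of mm10). Promoters for Fn1, Mmp2, Mmp16 and Mmp19 were not used here. Alternatives were other limits on FDR and p, a 2-fold limit, a minimum mean, pseudocounts and recentring. Python 3.11.15, numpy 2.4.6, pandas 2.3.3 and matplotlib 3.10.9 were used.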

Additional observations from a re-analysis of the deposited data

How the results depend on the processing

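The direction of all 6 genes held in the 18 comparisons run on them, with pseudocounts of 1 or 10 or recentred on the median of listed genes (-0.36). A pseudocount of 10 moved the log2 ratio of Mmp16 to 1.41 from 2.72 and that of Fn1 to 1.42 from 2.05, each by over 1.5-fold. The count of the 6 genes with an FDR below 0.05 was 0, and also 0 at FDR 0.1 and with an added 2-fold limit, while 4 had an unadjusted p below 0.01. Over all listed genes the count of 0 became 1 at FDR 0.1 and 365 at an unadjusted p below 0.01. Of the 65 listed genes on any list, 23 had an unadjusted p below 0.01, where 28.4% of all listed genes did. The 65 include the 6 genes, of which 4 are among the 23. Of 31 comparisons of list medians, 26 kept their direction and moved by less than 1.5-fold. At an unadjusted p below 0.01 the collagen median changed sign to -1.04 and the basement membrane median to 2.15, with fewer genes counted. No paired analysis was possible because each group has only its mean here, so left-out libraries, a replicate block, other normalizations and DESeq2 were not run, and whether 1 library decides a value was not tested. Depth per library is unknown.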

Other observations

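Of 27 gene symbols for collagen maturation 2 were listed, or 7.41% beside 7.69% of all tested genes. The 27 hold both the older and the newer symbol of some genes, so they stand for fewer genes. Plod3, a lysyl hydroxylase and glycosyltransferase of collagen, had means of 117.5 in Snai2-/- cells and 167.2 in control cells and a ratio of 0.703 at an unadjusted p of 0.00425 per the authors' deposited table. Loxl4, a lysyl oxidase family gene, had means of 15.1 and 5.74 in Snai2-/- and control cells per the authors' deposited table. Of 18 cathepsin and cystatin genes Ctsl, a lysosomal protease gene, was listed, with means of 1235 and 1003 in Snai2-/- and control cells per the authors' deposited table, and the osteoclast protease gene Ctsk was not.

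Adam28 stood at 1.14 in Snai2-/- cells and 0.105 in control cells, and Adamts20 at 0.0939 and 0.709 in Snai2-/- and control cells, per the authors' deposited table. Vwf, a gene of endothelium and megakaryocytes, had means of 1.38 in Snai2-/- cells and 23.0 in control cells per the authors' deposited table, and Flt4 had means of 6.85 and 3.28 in Snai2-/- and control cells there. Car1, an erythroid carbonic anhydrase gene, had means of 137.1 and 45.7 in Snai2-/- and control cells per the authors' deposited table.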
